A study of Saccharomyces cerevisiae with 4 samples.

Results

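The genes described here encode the small subunit of the mitochondrial ribosome of Saccharomyces cerevisiae. They were chosen by name: the MRPS, MRP and RSM genes of a fixed list of 30 systematic names, with PET123 and NAM9. Of these, 29 had a row in the table of 5799 genes and MRPS17 (YMR188C) was not analysed here. Every one of the 29 had values on at least 3 of the 4 arrays and was tested, 28 of them with a value on all 4.

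Mitochondrial ribosomes translate the few messages encoded by mitochondrial DNA, which in yeast specify mainly core subunits of the respiratory chain and of the ATP synthase. Nearly all their proteins are encoded in the nucleus, made in the cytosol and imported. The small subunit binds the messenger RNA and holds the decoding site, and consists of a body, a platform and a head built on 1 ribosomal RNA. Many of its proteins have a counterpart in bacterial ribosomes (family names beginning uS or bS), while others occur in mitochondria and not in bacteria (family names beginning mS). Growth on fermentable sugar does not require this ribosome, and respiration does.

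Each array carried RNA of an untreated culture in 1 dye and of a culture exposed to 30 mM acetic acid for 2 h in the other. All cultures were strain BY4741, grown in YPD at 28 °C to an absorbance of 0.6. All are labelled MATa with his3Δ1, leu2Δ0 and met15Δ0 and with LYS2 intact. The label of the ura3 deletion carries a different number on each array. Dyes were swapped between arrays. The name of an array here gives the dye of its treated sample and the replicate number: Cy5-1, Cy5-2, Cy3-1 and Cy3-2. By the design text the 4 replicates are biological; if same-numbered arrays were dye swaps of the same RNA, n would be 2. A ratio carries no level, so which of these genes were highly expressed cannot be read from the table, nor can the strain be checked by markers.

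Values are log2 ratios of acid-treated over untreated RNA. Base 2 and this direction are likely rather than stated: the small heat shock gene HSP26 had 5.81 to 7.43 and the weak-acid response gene YGP1 4.06 to 6.24 over the arrays, and arrays of opposite dye orientation correlated above 0 across genes (Pearson's r from 0.41 to 0.72), so they had already been turned the same way. If the direction were the other, every sign below would turn. Array Cy3-1 stood apart, with a standard deviation over genes of 1.05 against 0.70 to 0.81 on the others, and it gave the 3 lowest correlations between pairs of arrays: 0.41, 0.47 and 0.62.

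After acid treatment, the ratios of most small-subunit genes lay near 0, with MRP10 as the exception. MRP10 rose, and the other 28 did not pass the test. Over all genes, 8.85% were called higher, 2.02% lower and 10.9% in either direction (limma, adjusted p under 0.05 over 5291 genes); among the 29 members, 1 was called higher and 0 lower. An unadjusted p under 0.05 was reached by 4 of the 29 members and by 29.8% of all genes. The members' median mean ratio was -0.02, against -0.04 over all genes tested, and 12 of the 29 (41.4%) lay above 0, against 46.7% of all genes.

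**Figure D1:**
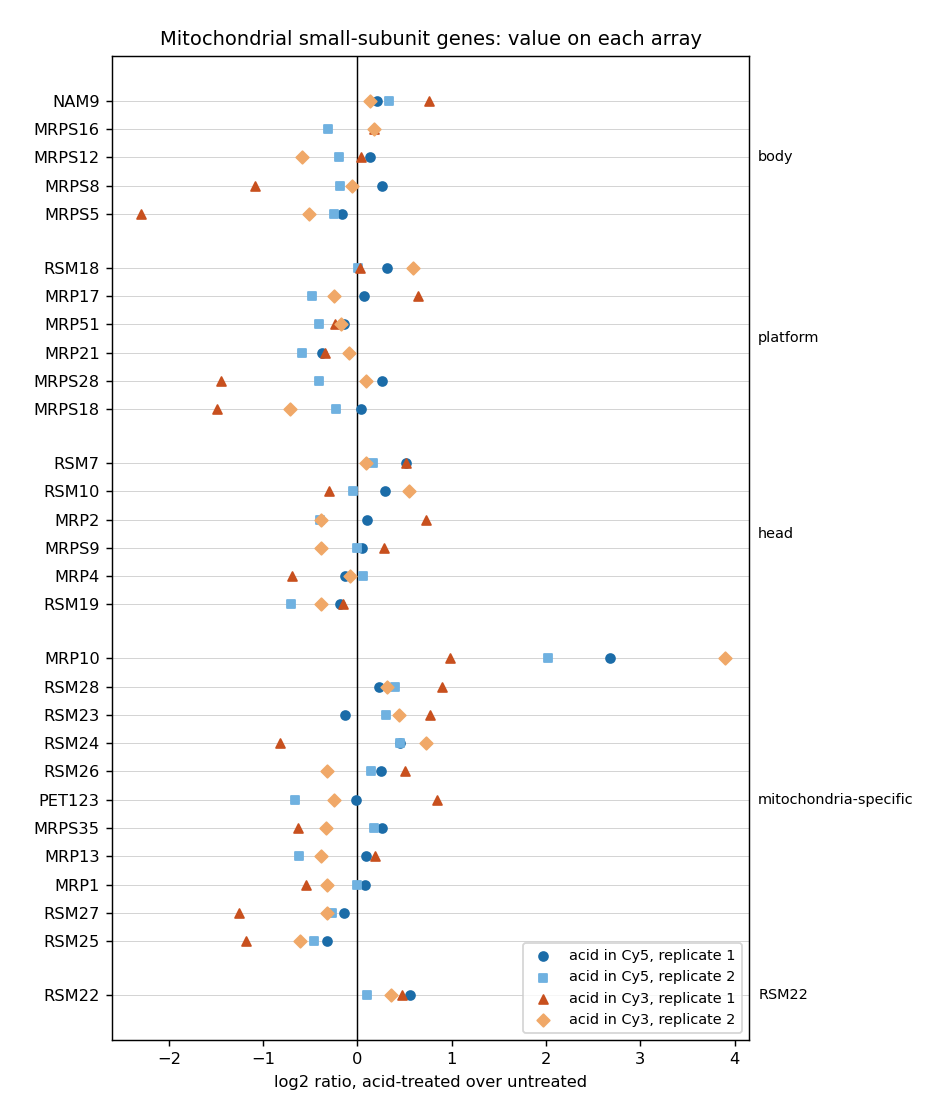
Log2 ratio of acid-treated over untreated RNA (x axis) of the 29 small-subunit genes (y axis, grouped by place in the subunit), with 1 symbol for each of the 4 arrays. The MRP10 values, from 0.98 to 3.90, lie above those of the other genes, and the values of Cy3-1 reach furthest from 0 among the rest.

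MRP10 (YDL045W-A, family name mS37) encodes a small protein of the mitochondria-specific set with paired cysteine motifs, and cells that lack it tend to lose intact mitochondrial DNA. Its ratio was 2.68 on Cy5-1, 2.02 on Cy5-2, 0.98 on Cy3-1 and 3.90 on Cy3-2. All 4 values were positive, and the lowest and the highest both came from arrays with the treated sample in Cy3. The mean was 2.39 ± 1.22 (SD, n = 4), a 5.25-fold rise with a 95% interval of 2.52- to 11-fold (limma adjusted p = 0.0209), and this ranked 71 from the highest among all genes tested.

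On each array MRP10 was above every other member. It exceeded the median of the others by 2.59 and 2.20 on the Cy5 arrays and by 1.04 and 4.11 on the Cy3 arrays. On Cy3-1, the margin over the next member, RSM28 (0.90), was small. The mean difference of MRP10 between orientations was -0.09 (dye term in limma, adjusted p = 0.982). It averages unlike Cy3 values of 0.98 and 3.90 and rests on 2 arrays per orientation, too few to measure a dye effect closely.

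The call on MRP10 depended on which array was left out. Without Cy5-1, Cy5-2 or Cy3-2, the mean was 2.30, 2.52 and 1.89 and the adjusted p 0.0935, 0.0748 and 0.0643 (limma). Without Cy3-1, the mean was 2.86 and the adjusted p 0.00284. Neither neighbour of MRP10 in the reference gene table passed, and neither overlaps it: NPC2, a sterol-transfer protein gene, had a mean of -0.13 ± 0.25 and FAD1, an FAD synthetase gene, -0.47 ± 0.91 (SD, n = 4; limma adjusted p = 0.582 and 0.374). The coding length of MRP10 is 288 bases. Of the other short members, RSM19 (276 bases), RSM27 (333), MRP2 (348) and MRPS16 (366) had means of -0.36, -0.50, 0.01 and 0.01.

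**Figure D2:**
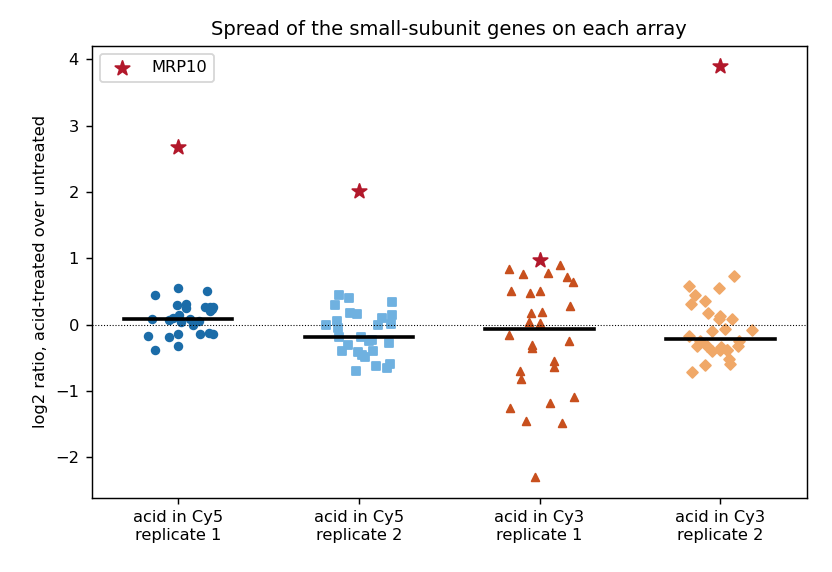
Log2 ratios (y axis) of the small-subunit genes on each of the 4 arrays (x axis), with MRP10 as a star, the other genes as points and their median as a bar. MRP10 is highest on every array, and the other genes spread most widely on Cy3-1.

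The 28 other members had means between -0.81 and 0.46, with a median of -0.08, and 11 of them lay above 0. The smallest adjusted p among them was 0.0772. Their 95% intervals, with a median width of 0.88 on the log2 scale, lay wholly between -1 and 1 for 23 of the 28, so for these a change of 2-fold or more fell outside the interval. The remaining 5 had wider or more shifted intervals, and for them such a change was not excluded by the interval: MRPS5, MRPS18, MRPS28, RSM25 and RSM27, all reaching below -1.

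The other members' scatter was not alike on the arrays. Their standard deviation was 0.24 on Cy5-1, 0.33 on Cy5-2, 0.85 on Cy3-1 and 0.39 on Cy3-2. On Cy3-1, 6 of the 28 lay beyond 1 in absolute value, and on the other arrays 0 did. On that array 11 members (39.3%) had their lowest value and 10 (35.7%) their highest, against 33.4% and 35.7% of all genes with 4 values.

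Body proteins, which hold the decoding region and the lower part of the subunit, had a median of -0.15 (5 genes measured). MRPS5 (YBR251W, uS5) had the lowest mean of all members. Its ratio was -0.17 and -0.25 on the Cy5 arrays and -2.30 and -0.52 on the Cy3 arrays, all negative. The mean of -0.81 ± 1.01 (SD, n = 4; limma adjusted p = 0.194) rested largely on Cy3-1 and was -0.31 without it. MRPS8 (YMR158W, uS8), whose bacterial counterpart binds the ribosomal RNA early in assembly, had a similar array pattern, with -1.09 on that array and -0.18 to 0.26 on the others.

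NAM9 (YNL137C, uS4), in which mutations suppress nonsense mutations of mitochondrial genes, was positive on every array, with 0.20 and 0.34 on the Cy5 arrays and 0.76 and 0.14 on the Cy3 arrays (mean 0.36 ± 0.28, limma adjusted p = 0.189). MRPS12 (YNR036C, uS12), whose bacterial counterpart acts in decoding accuracy, had a mean of -0.15 ± 0.32. MRPS16 (YPL013C, bS16) had 3 values, from -0.31 to 0.17.

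Platform proteins, beside the path of the messenger RNA, had a median of -0.30, with 5 of 6 means below 0 and 0 genes called. MRP17, at -0.01, was among the 5, and over all genes tested 46.7% lay above 0. MRPS18 (YNL306W, uS11) had 0.04 and -0.23 on the Cy5 arrays and -1.49 and -0.72 on the Cy3 arrays. Its mean was -0.60 ± 0.67 (limma adjusted p = 0.184). The values on the Cy3 arrays were both below those on the Cy5 arrays, as they were for MRPS5, MRPS35, MRP1, RSM25 and RSM27. For MRP21 and RSM23 both were above. How often all genes show either order was not counted. Of all members, MRPS18 had the smallest unadjusted p for a dye difference (dye term in limma, 0.0315, adjusted 0.665). MRPS28 (YDR337W, uS15), a counterpart of another early RNA-binding protein of bacteria, had -1.45 on Cy3-1 and -0.41 to 0.26 elsewhere.

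The other platform genes varied less. MRP21 (YBL090W, bS21), in which mutations suppress defects in the leaders of mitochondrial messages, had -0.38 and -0.59 on the Cy5 arrays and -0.35 and -0.09 on the Cy3 arrays, negative throughout, with a mean of -0.35 ± 0.20 (limma adjusted p = 0.169). MRP51 (YPL118W, bS1), which acts genetically on the same message leaders, had the closest agreement of all members over the arrays, from -0.41 to -0.14 (mean -0.24 ± 0.12). RSM18 (YER050C, bS18) was positive on every array, between 0.01 and 0.59, and MRP17 (YKL003C, bS6) had both signs, from -0.49 to 0.64.

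Head proteins were divided around 0, 3 above and 3 below, with a median of -0.00. RSM7 (YJR113C, uS7), counterpart of the protein that starts assembly of the bacterial head, was positive on every array (0.09 to 0.51, mean 0.32 ± 0.22), and RSM19 (YNR037C, uS19) negative on every array (-0.71 to -0.15, mean -0.36 ± 0.26). Their limma adjusted p were 0.207 and 0.182. RSM10 (YDR041W, uS10), MRP2 (YPR166C, uS14), MRPS9 (YBR146W, uS9) and MRP4 (YHL004W, uS2) had means of 0.12, 0.01, -0.01 and -0.22, each with both signs over the arrays.

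The mitochondria-specific set held 11 genes, MRP10 among them, and spanned the range from -0.64 to 2.39 with a median of -0.02. RSM25 (YIL093C, mS23) came nearest to a call among the members that did not pass. Its ratio was -0.32 and -0.46 on the Cy5 arrays and -1.18 and -0.61 on the Cy3 arrays, all negative. The mean was -0.64 ± 0.38, 0.641 of the untreated level (limma adjusted p = 0.0772; 0.0306 after quantile normalization of the arrays, with a mean of -0.63). RSM27 (YGR215W, mS33) was negative throughout as well, with -0.15 and -0.27 on the Cy5 arrays and -1.26 and -0.33 on the Cy3 arrays (mean -0.50 ± 0.51, limma adjusted p = 0.180).

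RSM28 (YDR494W, mS46), a mutant form of which suppresses defects in mitochondrial translation initiation, had the highest mean after MRP10. The values were 0.23 and 0.40 on the Cy5 arrays and 0.90 and 0.32 on the Cy3 arrays, with a mean of 0.46 ± 0.30 (limma adjusted p = 0.127). RSM24 (YDR175C, mS35) had 0.45 on both Cy5 arrays and -0.83 and 0.73 on the Cy3 arrays. Its mean of 0.20 ± 0.70 did not pass (limma adjusted p = 0.642); without Cy3-1, the mean was 0.54 and the adjusted p 0.0478. RSM23 (YGL129C, mS29), related to the human GTP-binding protein DAP3, had a mean of 0.35 ± 0.37.

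MRP1 (YDR347W, mS43) and RSM26 (YJR101W, mS42), which are both related in sequence to manganese superoxide dismutase, had means of -0.20 ± 0.29 and 0.14 ± 0.35. PET123 (YOR158W, mS26) ranged from -0.66 to 0.84 with a mean of -0.02 ± 0.63, and MRP13 (YGR084C, mS44) from -0.62 to 0.18 with a mean of -0.18 ± 0.39. MRPS35 (YGR165W, mS45) was positive on both Cy5 arrays (0.26 and 0.17) and negative on both Cy3 arrays (-0.63 and -0.34). Opposite signs on the 2 orientations occurred in 1 member and in 7.6% of all genes tested, of which those with 3 values could not qualify. RSM22 (YKL155C), a methyltransferase-like protein with no ribosomal family name in the reference table, was positive on every array, with 0.55 and 0.11 on the Cy5 arrays and 0.47 and 0.36 on the Cy3 arrays (mean 0.37 ± 0.19, limma adjusted p = 0.151).

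**Figure D3:**
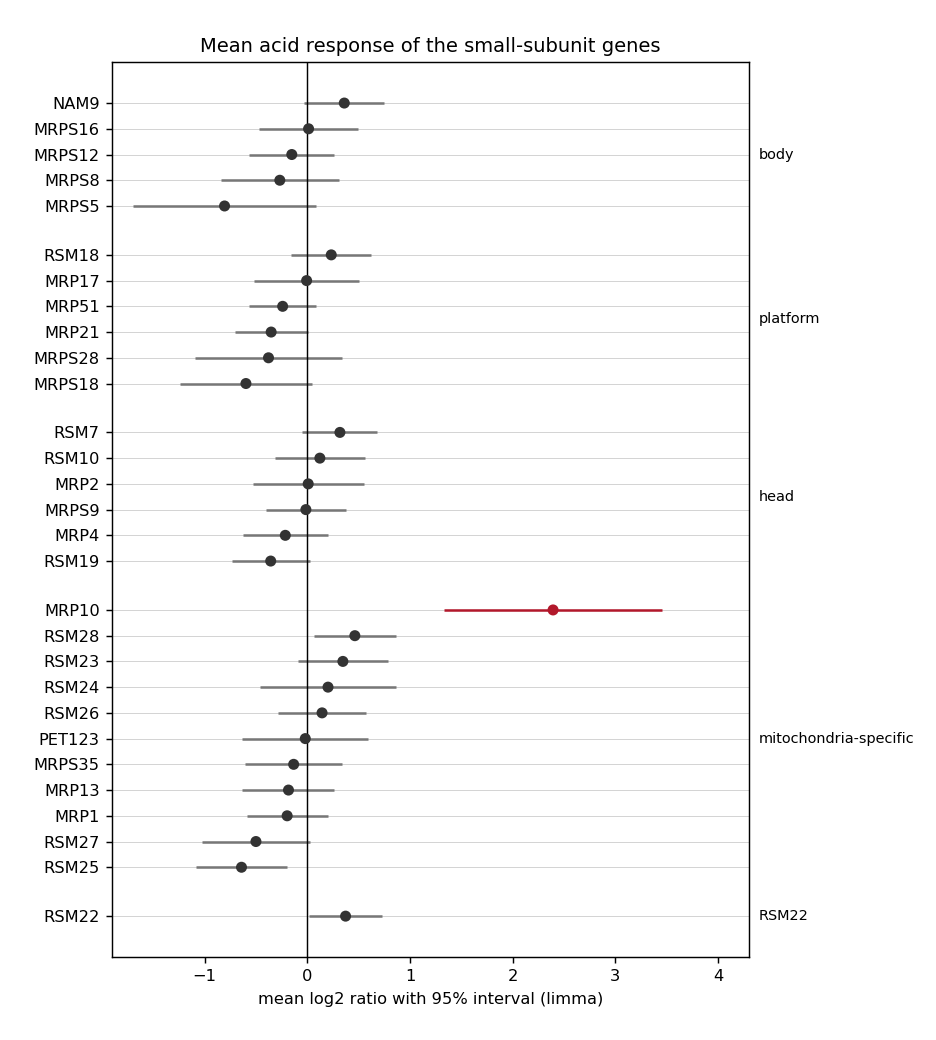
Mean log2 ratio over arrays (points, x axis) with the 95% interval of the limma fit (bars) for each small-subunit gene (y axis, grouped by place in the subunit). The red gene, MRP10, is the member past an adjusted p of 0.05, and its interval lies above those of the other 28.

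By ancestry, the 12 measured genes of the uS families had a median of -0.18 with 4 above 0, the 5 of the bS families -0.01 with 2 above 0, and the 11 of the mS families -0.02 with 5 above 0. These ranges overlapped, apart from MRP10. Among the members other than MRP10, 11 of 28 had the same sign on every array, against 42.6% of all genes tested. In the test of the dye difference, 0 of 29 members passed (limma) and 1 reached an unadjusted p under 0.05, against 0.227% and 7.03% of all genes.

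Small-subunit genes outside the list gave a mixed picture. EHD3 (mS47), related to a hydrolase of valine breakdown, rose, with 1.17 and 0.38 on the Cy5 arrays and 1.25 and 0.94 on the Cy3 arrays. Its mean was 0.93 ± 0.39 (limma adjusted p = 0.0285), and the call was lost on leaving out Cy5-1 (adjusted p = 0.133) or Cy3-2 (0.131) and with same-numbered arrays averaged (0.0671). FYV4 (mS41), QRI5 (mS38) and SWS2 (uS13) did not pass, with means of -0.45, -0.25 and -0.16. Over all genes tested, 10.9% passed.

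The large subunit is the partner that carries the peptidyl transferase centre. Of its 38 genes tested, 0 passed and 4 reached an unadjusted p under 0.05 (limma). Over all genes tested, these shares were 10.9% and 29.8%, and 46.7% lay above 0. Among the 38, 14 lay above 0 and the median was -0.14 (-0.05 without Cy5-2 and -0.06 without Cy3-2), with means from -0.78 to 0.64. MRPL37 and MRP20 had the smallest p, with means of -0.58 ± 0.32 and 0.64 ± 0.41 (limma adjusted p = 0.0825 and 0.0851). They passed under 1 alternative each, MRPL37 without Cy3-1 (adjusted p = 0.041), and MRP20 with a dye term (0.0442). On single arrays the medians of the small- and large-subunit genes were 0.09 and 0.12, -0.18 and -0.26, 0.03 and 0.10, and -0.17 and -0.20, in the order Cy5-1, Cy5-2, Cy3-1 and Cy3-2.

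Factors that work with the ribosome are described by their counts and medians. For these and the next lists, the shares over all genes tested were 10.9% passing and 29.8% at an unadjusted p under 0.05 (limma). All 7 tested genes of mitochondrial initiation, elongation and release factors had means below 0, and over all genes tested 46.7% lay above 0. Their median was -0.24 (-0.44 without Cy5-2 and -0.14 without Cy3-1), and 0 passed (limma; 1 at an unadjusted p under 0.05). MEF1 and AIM23 lay close to 0, at -0.04 each with both signs over the arrays. RRF1 had a mean of -0.78, with -2.33 on Cy3-1. The release factor gene MRF1 had -0.48 ± 0.25 and the elongation-type factor gene GUF1 -0.54 ± 0.55 (limma adjusted p = 0.102 and 0.172). Of 15 translational activators of single mitochondrial messages, PET494, an activator of COX3 translation, rose by 0.71 ± 0.19 (limma adjusted p = 0.0297; 0.148, 0.123 and 0.0911 on leaving out Cy5-1, Cy5-2 and Cy3-2 in turn, and 0.0942 with same-numbered arrays averaged). The other 14 did not pass, and the list's median was -0.10, or 0.03 without Cy3-1 or without Cy5-2. Under alternatives, MSS51, an activator of COX1 translation (mean -0.94 ± 0.79, limma adjusted p = 0.0999), passed with a dye term (0.0118) and with same-numbered arrays averaged (0.0496). Its values differed by orientation, with -0.34 and -0.21 on the Cy5 arrays and -1.81 and -1.39 on the Cy3 arrays. The dye term in limma gave an unadjusted p of 0.00497 for this difference (adjusted 0.513). CBS2, an activator of COB translation (0.39 ± 0.30, limma adjusted p = 0.172), passed without Cy3-1 (0.0444).

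Assembly and rRNA modification genes had a median of 0.06 over 7 tested, which was -0.03 without Cy3-1 and -0.14 over the 8 genes with at least 2 values. Ribosome receptors and insertion factors of the inner membrane had a median of -0.19 over 4, or -0.02 without Cy3-1. In both lists 0 passed (limma; 2 and 1 at an unadjusted p under 0.05). The RNA methyltransferase gene MRM2 and CCM1, which acts on the small ribosomal RNA, had means of -0.55 and -0.41, and the insertion factor gene COX18 and the ribosome receptor gene MBA1 -0.34 and -0.39. CCM1 passed without Cy3-1 (limma adjusted p = 0.0487). In mitochondrial transcription and RNA turnover, MTF1, the specificity factor of the mitochondrial RNA polymerase, rose by 1.03 ± 0.11 (SD, n = 3; limma adjusted p = 0.0208), and the other 5 genes, the polymerase gene RPO41 among them (-0.08 ± 0.17, n = 4), did not pass. Without Cy5-2 or without Cy3-2, MTF1 had an adjusted p of 0.113. PET127, which acts in mitochondrial RNA processing (mean -0.85 ± 0.72, limma adjusted p = 0.106), passed with a dye term (0.0322) and after quantile normalization (0.034). Its difference between orientations, Cy5 minus Cy3, was 1.06 (dye term in limma, unadjusted p = 0.0305, adjusted 0.665).

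Among regulators of nuclear genes for mitochondria, HAP5, a subunit of the CCAAT-binding complex, rose by 0.75 ± 0.26 (limma adjusted p = 0.0326), while its partners HAP2 and HAP3 had -0.70 ± 0.54 (n = 4) and -0.78 ± 0.79 (n = 3) and did not pass; HAP4 was not analysed here. HAP5 lost its call on leaving out Cy5-1 (0.101), Cy5-2 (0.0928) or Cy3-2 (0.152) and with same-numbered arrays averaged (0.0816). PUF3, which in yeast binds the messages of many mitochondrial ribosomal proteins, had 0.14 ± 0.69, with 1.16 on Cy3-2 and negative values on the other arrays.

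**Figure D4:**
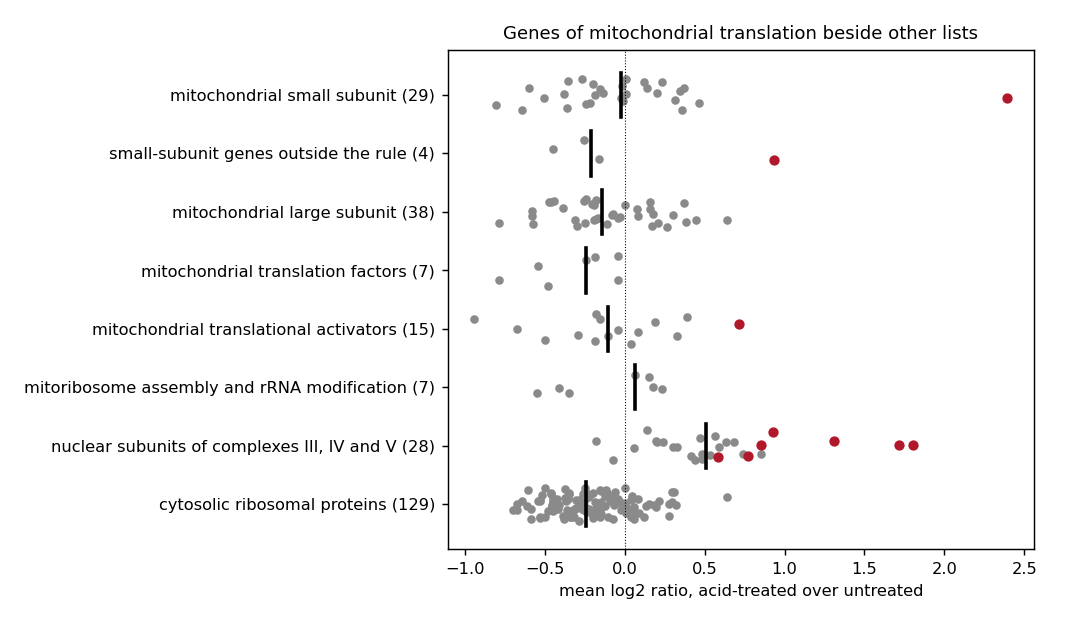
Mean log2 ratio (x axis) of each tested gene in 8 lists (y axis, number tested in brackets), with genes past an adjusted p of 0.05 in red and list medians as bars. The small- and large-subunit lists are centred near 0, with MRP10 the highest gene shown, and the list of complexes III, IV and V lies mostly to the right of 0.

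The nuclear genes of respiratory complexes III and IV and of the ATP synthase, whose partner subunits the mitochondrial ribosome makes, lay mostly above 0. Of 28 tested, 7 (25%) rose and 0 fell, against 8.85% and 2.02% of all genes tested. Means above 0 were found for 26 (92.9%), against 46.7% of all genes, and the median was 0.51. COR1, QCR8 and QCR2 of complex III and ATP2 of the ATP synthase had means of 1.81, 1.71, 1.31 and 0.93. The number that rose was 3 when Cy5-1, Cy5-2 or Cy3-2 was left out and 3 with same-numbered arrays averaged. It was 10 without Cy3-1 and 9 after quantile normalization. For 129 cytosolic ribosomal protein genes the median was -0.24, 26 (20.2%) lay above 0 and 0 passed (limma). An unadjusted p under 0.05 was reached by 29.8% of all genes and by 34 of the 129 listed (limma). The smallest p were those of RPS22A and RPS1A, with means of -0.61 ± 0.21 and 0.64 ± 0.29 (limma adjusted p = 0.0509 and 0.0593), which passed under 5 and 3 of 12 alternatives. Each has a near-identical gene copy, so its values may include signal of the other copy, which was not tested. The copies RPS22B and RPS1B had means of 0.30 ± 0.43 and 0.15 ± 0.23. Without Cy3-1, 8 of the 129 passed, 1 higher and 7 lower, and after quantile normalization 6 passed, 1 higher and 5 lower. Over all 5291 genes, 645 were higher and 254 lower without Cy3-1, and 541 and 268 after quantile normalization. The difference between these lists and the small-subunit genes was not tested.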

How the data were processed

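The authors deposited 1 log2 ratio per gene and array, in a table of 4 two-colour arrays. No source used here names the scanner, background correction or normalization, and base 2 is assumed. Signal over background is unknown, since spot intensities were not used here. The number of arrays limits the precision. Systematic names were matched without regard to letter case to the locus tags of RefSeq's gene table of assembly R64 (5336 of 5799), which gave symbols, family names and coding lengths. Its coordinates are not printed.

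The labels gave each array's dye orientation. Ratios were tested against 0 for the 5291 genes measured on 3 arrays or more with an intercept-only model in limma 3.58.1 (R 4.3.3; lmFit, eBayes), two-sided, with Benjamini-Hochberg adjustment over all genes and a threshold of 0.05. A second fit tested a dye term. P-values measure the spread between these arrays, which may be technical. Both fits were tested on simulated data.

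The members, the role groups and the 10 comparison lists were chosen with earlier results of these data known, so no list test was made. Values on every array are given for members past the threshold, the 3 highest and 3 lowest means and the 6 smallest p. From each list up to 4 called genes are named, or the 2 with the smallest p. Further members and genes were named after their values were seen. The 13 alternatives were a dye term, the replicate number as a random block, same-numbered arrays averaged, median centring, quantile normalization, a minimum of 2 or of 4 values, robust variance, leaving out each of the 4 arrays and a minimum fold of 1.2. The last was run only for counts over all genes and the members. No promoter or protein sequences were used here.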

Additional observations from a re-analysis of the deposited data

Results flagged for a closer look

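Of 28 members with 4 values, 2 had 1 array far from the other 3. Chance flags about 5% of such groups where all arrays scatter alike. These arrays did not, since Cy3-1 scattered most, and the share flagged over all genes was not counted. For MRPS5 the gap between Cy3-1 (-2.30) and the next value made up 0.837 of the range. For RSM27 the corresponding share was 0.839, with -1.26 on the same array. Without that array their means were -0.31 and -0.25. MRPS35 was positive on both Cy5 arrays and negative on both Cy3 arrays, with a mean difference of 0.70. Opposite signs on the 2 orientations occurred in 7.6% of all genes tested, of which those with 3 values could not qualify. MRPS35 was listed for this pattern of signs alone. In the fit with a dye term its difference had an adjusted p of 0.665 (limma).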

How the results depend on the processing

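With an adjusted p under 0.05 in limma, 575 genes were called, 468 higher and 107 lower. With same-numbered arrays averaged the counts were 377, 306 and 71, and with a minimum fold of 1.2 they were 317, 286 and 31. The lower genes numbered 207 with a dye term, 268 after quantile normalization and 176 with the replicate number as a random block. Leaving out 1 array gave 187 to 899 calls, 176 to 645 higher and 11 to 254 lower. Among the members, higher genes numbered 0 to 2 when 1 array was left out (0 on leaving out Cy5-1, Cy5-2 or Cy3-2, and MRP10 and RSM24 on leaving out Cy3-1), and 1 lower gene, RSM25, was called after quantile normalization. Under the other alternatives, MRP10 alone was called. The members' median stayed between -0.08 and -0.02. Of 347 member ratios recomputed, 332 kept their sign. Deviations from the orientation means correlated at 0.252 within replicate numbers; there are only 2 such pairs, so the numbers were treated as names. A fixed replicate block beside the dye term, which needs 4 values per gene, gave 7 genes with a dye difference, against 12 over all genes tested and 8 among genes with 4 values without the block, and 0 members. The causes of these differences were not tested.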

Other observations

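MRP10 belongs to the proteins with paired cysteine motifs (twin CX9C), most of which enter the intermembrane space through Mia40. Other genes of this kind and of their import were looked up after the MRP10 values were seen, and 10 of 15 were tested. MIX14 rose by 0.74 ± 0.34 and MIX23 fell, with a mean of -0.61 ± 0.19 (SD, n = 4; limma adjusted p = 0.0477 and 0.0478). Both lay close to the threshold and passed under 6 and 7 of 12 alternatives, with adjusted p from 0.0268 to 0.162 and from 0.0302 to 0.193. Over all genes tested, 8.85% were called higher and 2.02% lower. The other 8 genes of the list did not pass. Among these the import receptor gene MIA40 had a mean of -0.00 ± 0.55, its oxidase gene ERV1 -0.19 ± 0.48 and the copper chaperone gene COX17 0.29 ± 0.31. The median of the 10 was -0.04, and none reached the mean of MRP10.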
